A study of Rattus norvegicus with 6 samples.

Results

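Genes of the GLUT and SGLT transporter families were followed in kidney RNA of rats with chronic kidney disease (CKD) and of sham controls. The 10 genes were chosen by name, 5 from the Slc2a (GLUT) family and 5 from the Slc5a (sodium-coupled) family. Earlier results of these data were known when they were chosen. The 10 symbols matched 10 of the 31368 rows of the count table, with 0 symbols repeated, and all 10 passed the filter on low counts that left 15371 genes for testing. The libraries came from renal tissue of Sprague-Dawley rats, all male and of wild-type (WT) genotype, in a CKD model set up at 8 weeks of age. Group Sham had 3 libraries and group CKD had 3; how the disease was caused, when tissue was taken and whether each library is a separate animal are not given in the sources used here. P-values therefore measure the spread between these libraries, which may be technical.

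Filtered glucose is taken back in the proximal tubule in a pair of steps. Sodium-coupled carriers of the brush border draw sugar into the cell, a low-affinity carrier (SGLT2) in the early tubule and a high-affinity carrier (SGLT1) in the late tubule, and facilitative GLUT carriers let it out towards the blood. Relatives of these proteins move fructose, mannose, urate or, in the case of the SMCT carriers Slc5a8 and Slc5a12, lactate and other monocarboxylates, so that not every member carries a sugar or urate.

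The comparison of CKD with Sham asks which of these transporters differ in level between diseased and control kidney. Of the 10 members 0 passed an adjusted p of 0.05 in edgeR's quasi-likelihood test, against 3.82% of all genes tested. At an unadjusted p under 0.05 there were 2 members, Slc2a5 and Slc2a1, both lower in CKD, where 23.8% of all genes stood below that value and 10.3% did so as lower genes. The groups did not overlap in 1 of the 10 members, Slc2a5, which was lower in CKD; 31.2% of all genes were so separated in either direction, and 12.4% of all genes were separated and lower. Among the members, the share called and the share without overlap were below those of all genes, and the share at an unadjusted p under 0.05 was below that in either direction but above that of lower genes. In limma-voom 0 members passed, and in DESeq2 1 did, namely Slc2a5, beside 7.28% of genes lower by that tool. The median log2 fold change (CKD minus Sham) of the members was -0.36, with 4 positive and 6 negative, against a median of -0.0082 over all genes tested.

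**Figure D1:**
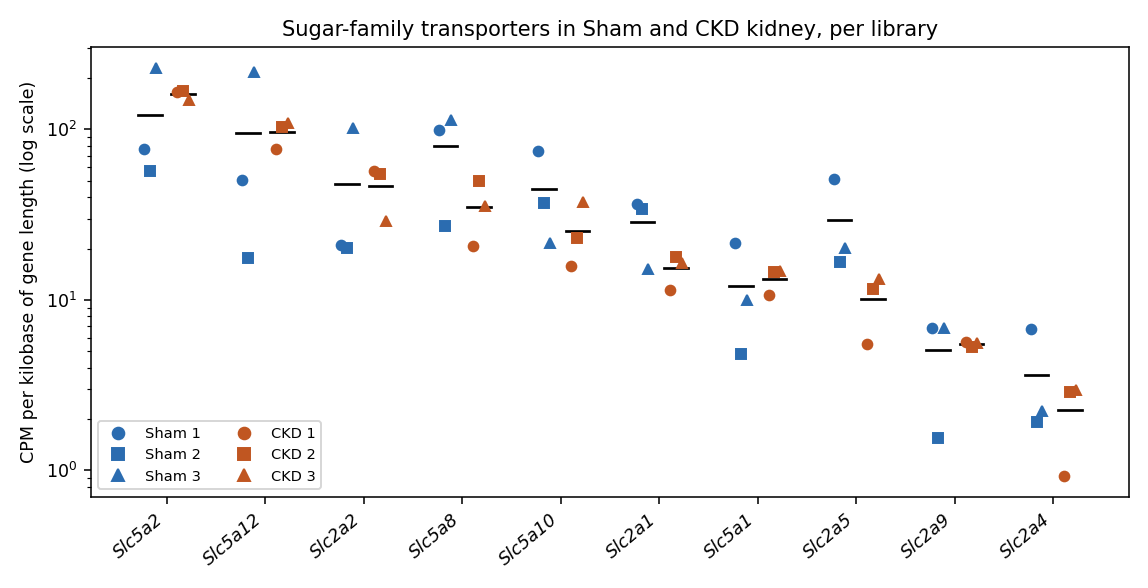
Level of each member in CPM per kilobase of gene length (log axis) in each of the 3 Sham (blue) and 3 CKD (orange) libraries; bars are group means. Slc5a2 had the highest mean in both groups, at 121 in Sham and 161 in CKD, and the Sham libraries scatter more than the CKD libraries for every member.

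The 6 libraries held from 15918035 to 17503644 assigned counts, so that even the member with the fewest reads, Slc2a4, had 51 to 271 counts in a library. Mitochondrial genes took 37.9% of counts in Sham 2, 14.4% in Sham 1 and 15.3% in Sham 3, and 8.83% to 10.8% in CKD. The control libraries also stood apart from each other in their nephron markers. The 6 genes of the late proximal tubule summed to 8387, 1388 and 1142 CPM (counts scaled to a common library size with TMM factors) in Sham 1, 2 and 3, and 6 genes of the early proximal tubule to 4984, 2986 and 9580 CPM. As a share of the early sum, the late sum was 168%, 46.5% and 11.9% in Sham 1, 2 and 3, and in CKD 1, 2 and 3 it was 6.60%, 10.6% and 16%. Slc7a13 (an amino acid carrier) made up most of the late sum in Sham 1, at 6766 CPM, and stood at 681 and 409 CPM in Sham 2 and Sham 3 and at 8.83, 50.2 and 618 CPM in CKD 1, 2 and 3. Collecting duct genes, with Avpr2 at 0 in all libraries, summed to 2912 CPM in Sham 2 and to 665 and 855 CPM in Sham 1 and Sham 3, and to 456 to 533 CPM in CKD. In bulk tissue, fewer cells of a type and less RNA per cell cannot be told apart.

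Among the sodium-glucose carriers, Slc5a2 encodes SGLT2, the main glucose carrier of the early proximal tubule and the target of the gliflozin drugs. It stood at 181, 134 and 541 CPM in Sham 1, 2 and 3 and at 390, 397 and 351 CPM in CKD 1, 2 and 3. The CKD libraries lay close together and inside the range of the controls, where Sham 3 was the highest of all 6 libraries. The log2 fold change was 0.41 ± 0.51 (SE), with a 95% interval from -0.78 to 1.60 (edgeR adjusted p = 0.668). That interval covers both a fall and a rise of more than 1.5-fold, so neither equality nor a change was shown. Without Sham 3 the value was 1.20, and without Sham 2 it was 0.038. In the table's coordinates, whose build is uncertain, Slc5a2 lies on chromosome 1 from 182847106 to 182853306 and overlaps Rusf1 on the other strand, and reads of such neighbours cannot be told apart without the counting's strand setting.

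Slc5a1 encodes SGLT1, which takes up the glucose that SGLT2 leaves behind. Its levels were 61.6, 13.8 and 28.3 CPM in Sham 1, 2 and 3 and 30.4, 41.5 and 42.2 CPM in CKD 1, 2 and 3. Sham 1 was the highest library and Sham 2 the lowest, with all CKD libraries between them. The estimated log2 change was 0.14 ± 0.49 with an interval from -0.997 to 1.27 (edgeR adjusted p = 0.892), and its sign turned without Sham 2 (-0.28) or Sham 3 (-0.042), while it was 0.82 without Sham 1.

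Slc5a10 encodes SGLT5, a carrier of mannose and fructose in the kidney. It had 186, 92.2 and 53.6 CPM in Sham 1, 2 and 3 and 39.6, 57.3 and 93.0 CPM in CKD 1, 2 and 3. Sham 1 stood above the rest, and CKD 3 reached the level of Sham 2, so the groups overlapped. Its log2 fold change was -0.81 ± 0.49 (interval from -1.95 to 0.34, edgeR adjusted p = 0.357), or -0.25 without Sham 1. The gene overlaps Fam83g on the other strand.

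Of the monocarboxylate carriers, Slc5a8 encodes SMCT1, a high-affinity carrier of lactate and other short monocarboxylates. It stood at 318, 86.9 and 365 CPM in Sham 1, 2 and 3 and at 65.8, 159 and 113 CPM in CKD 1, 2 and 3. Sham 1 and Sham 3 were above every CKD library, but Sham 2 fell within the CKD range. Its log2 fold change was -1.19 ± 0.55, with an interval from -2.47 to 0.094 (edgeR adjusted p = 0.238), and it was -1.64 without Sham 2 (edgeR adjusted p = 0.0701).

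Slc5a12 encodes SMCT2, the low-affinity counterpart of the early tubule. It had 202, 69.7 and 869 CPM in Sham 1, 2 and 3 and 305, 410 and 437 CPM in CKD 1, 2 and 3. The highest control was 12.5 times the lowest, whereas the CKD libraries differed by 1.43 times. Its group means were 380 ± 429 CPM in Sham and 384 ± 69.6 CPM in CKD (mean ± SD, n = 3 per group), with a log2 fold change of 0.014 ± 0.78 and an interval from -1.81 to 1.84 (edgeR adjusted p = 0.993). Leaving out Sham 3 gave 1.44 and leaving out Sham 2 gave -0.51, so the near equality of the means rested on control libraries that lay far apart.

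Of the facilitative glucose carriers, Slc2a2 encodes GLUT2, the low-affinity carrier of the basolateral side of early proximal cells. It stood at 91.5, 87.8 and 443 CPM in Sham 1, 2 and 3 and at 247, 237 and 125 CPM in CKD 1, 2 and 3. As with Slc5a2 and Slc5a12, Sham 3 was highest and the other controls were below all CKD libraries. The log2 fold change was -0.030 ± 0.65 (interval from -1.55 to 1.49, edgeR adjusted p = 0.984), turned positive with scaling by library totals alone (0.37), and was 1.11 without Sham 3.

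Slc2a1 encodes GLUT1, a carrier found in most cell types, including endothelium and later nephron segments. Its levels were 96.4, 90.7 and 40.2 CPM in Sham 1, 2 and 3 against 30.3, 47.4 and 43.9 CPM in CKD 1, 2 and 3. Sham 1 and Sham 2 were above every CKD library, and Sham 3 lay among them. The log2 fold change was -0.90 ± 0.36 with an interval from -1.73 to -0.074, which missed the threshold over all genes (edgeR adjusted p = 0.179). With library totals as the only scaling it was -0.47, while the median over all genes was then 0.41 rather than -0.0082. The thick limb gene sum was likewise higher in Sham 1 and Sham 2 than in Sham 3 and every CKD library, at 7871, 3441 and 1914 CPM in Sham 1, 2 and 3 and 1300 to 3075 CPM in CKD. Red cell genes, 4 tested of 5 in the table, summed to 187, 586 and 562 CPM in Sham 1, 2 and 3. In CKD they summed to 137 to 352 CPM. The part of any cell type in the Slc2a1 values was not tested.

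Slc2a4 encodes GLUT4, the insulin-responsive carrier of muscle and fat. It was the member with the lowest level, at 18.1, 5.10 and 5.91 CPM in Sham 1, 2 and 3 and 2.46, 7.70 and 7.94 CPM in CKD 1, 2 and 3. Sham 1 was the highest library and CKD 1 the lowest, and the other 4 libraries lay together. This gave a log2 fold change of -0.69 ± 0.62 (interval from -2.14 to 0.77, edgeR adjusted p = 0.544), and 0.092 without Sham 1. Of the fat cell markers, Plin1 and Lep were at 0 in 5 of 6 libraries each and Adipoq stood at 3.94 to 16.3 CPM; the 5 markers together summed to 6.19 to 17.3 CPM in Sham and to 7.68 to 10.7 CPM in CKD. The skeletal muscle markers in the table, 3 of 5 listed, summed to 0.965 CPM or less in every library.

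Turning to fructose and urate, Slc2a5 encodes GLUT5, the fructose carrier of the late proximal tubule. It had 122, 39.96 and 48.0 CPM in Sham 1, 2 and 3 and 13.1, 27.6 and 31.6 CPM in CKD 1, 2 and 3. Every CKD library was below every control library, although Sham 1 alone stood far above the rest. Its mean was 70.2 ± 45.5 CPM in Sham and 24.1 ± 9.73 CPM in CKD, with a log2 fold change of -1.54 ± 0.50 and an interval from -2.72 to -0.37 (edgeR adjusted p = 0.120). It had the lowest fold change of the 10 members and the same sign under all 15 alternatives, from -1.87 to -0.91, with adjusted p from 0.0225 (DESeq2) to 0.339 (without CKD 1). The late proximal gene sum was also lower in CKD, at 1142 to 8387 CPM in Sham and 436 to 1088 CPM in CKD. Of its 6 genes 5 were negative and 0 called. Between Sham 2 and Sham 3 the order differed, with a late sum of 1388 and 1142 CPM beside 39.96 and 48.0 CPM of Slc2a5. The part of late tubule content in the Slc2a5 values was not tested.

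Slc2a9 encodes GLUT9, a urate carrier. It stood at 26.5, 6.01 and 26.5 CPM in Sham 1, 2 and 3 and at 21.9, 20.6 and 21.7 CPM in CKD 1, 2 and 3. The 3 CKD libraries differed by 1.07 times and lay between the low Sham 2 and the other controls. Its log2 fold change was 0.12 ± 0.50 (interval from -1.04 to 1.28, edgeR adjusted p = 0.909), and -0.35 without Sham 2.

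**Figure D2:**
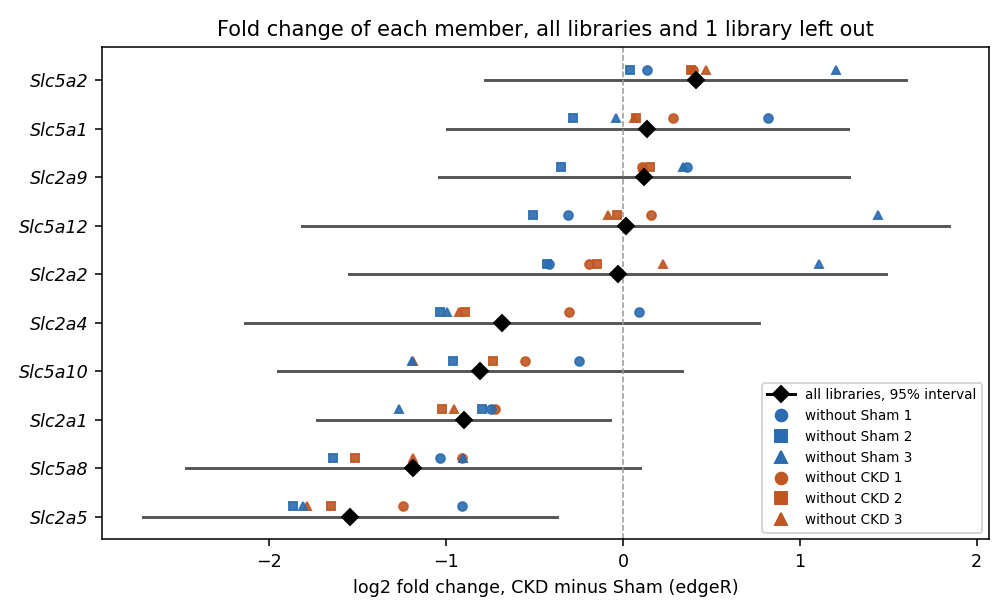
Log2 fold change (CKD minus Sham) of each member from edgeR with its 95% interval (black), and the value with 1 library left out (coloured symbols). Slc5a2, Slc5a12 and Slc2a2 move to 1.20, 1.44 and 1.11 without Sham 3, while Slc2a5 stays between -1.87 and -0.91.

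Per kilobase of gene length, Slc5a2 was the most abundant member in both groups, at 121 ± 94.6 CPM per kilobase in Sham and 161 ± 10.4 in CKD (mean ± SD, n = 3 per group). In CKD the order went on with Slc5a12 (96.5 ± 17.5), Slc2a2 (46.8 ± 15.6), Slc5a8 (35.2 ± 14.6), Slc5a10 (25.4 ± 10.9), Slc2a1 (15.3 ± 3.39), Slc5a1 (13.3 ± 2.33), Slc2a5 (10.1 ± 4.08), Slc2a9 (5.51 ± 0.190) and Slc2a4 (2.26 ± 1.16). In this order Slc5a2 was above Slc5a12, Slc5a12 above Slc2a2, and Slc2a9 above Slc2a4 in all CKD libraries without overlap, and every other pair of neighbours overlapped. In Sham the order was Slc5a2, Slc5a12, Slc5a8, Slc2a2, Slc5a10, Slc2a5, Slc2a1, Slc5a1, Slc2a9 and Slc2a4, with every pair of neighbours overlapping. Slc2a5 thus stood at rank 6 in Sham and rank 8 in CKD.

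The control libraries varied more than the diseased ones. The SD of log2 CPM was larger in Sham than in CKD for 10 of 10 members, as it was for 79.6% of all genes tested. The median SD was 1.07 in Sham and 0.45 in CKD for the members and 0.48 and 0.22 for all genes. Slc5a2 and Slc2a9 were the most even members in CKD, with an SD of 0.095 and 0.050 on the log2 scale, against 1.06 and 1.23 in Sham. Leaving out Sham 3 brought 6 of the 10 members below an unadjusted p of 0.05, beside 21.7% of the genes tested in that fit. Slc5a2, Slc5a12 and Slc2a2 were then positive and Slc5a10, Slc2a1 and Slc2a5 negative, with edgeR adjusted p from 0.109 to 0.206, so 0 passed. Leaving out each of the other 5 libraries gave 0 to 2 members below that unadjusted p.

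Members fell into patterns across the 6 libraries, given here as a description. The closest pattern to that of Slc5a2 among the other members was that of Slc5a12 (Pearson r of log2 CPM 0.94), and the closest to Slc2a2 was that of Slc5a2 (r = 0.90). These 3 genes were highest in Sham 3. Slc2a5 and Slc2a4 (r = 0.88) and Slc5a10 and Slc2a1 (r = 0.86) were likewise nearest to each other and were highest in Sham 1, as was Slc5a1, whose closest member was Slc2a9 (r = 0.84). Slc5a8 was nearest to Slc2a5 (r = 0.77). Slc5a2 ran against Slc2a1 (r = -0.89) and Slc2a2 against Slc5a10 (r = -0.80). With group means removed, the pairs of nearest members had r from 0.64 (Slc5a8 with Slc2a5) to 0.99 (Slc2a4 with Slc2a5). The r of Slc5a2 with Slc2a1 was then -0.87, and that of Slc2a2 with Slc5a10 was -0.82. Some nearest partners changed. Slc5a8 was then closest to Slc2a9 (r = 0.85), and Slc5a1 and Slc5a10 to Slc2a5 (r = 0.87 and 0.85). The points share library depth, scaling factor and group. Slc5a2, Slc5a12 and Slc2a2 were lower in Sham 1 and Sham 2, which had the highest ratios of late to early proximal genes, than in the other libraries. Between Sham 1 and Sham 2 the order did not hold. Sham 1 had the higher ratio (168% against 46.5%) and also more of these 3 genes. The part of tubule segments in these patterns was not tested.

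**Figure D3:**
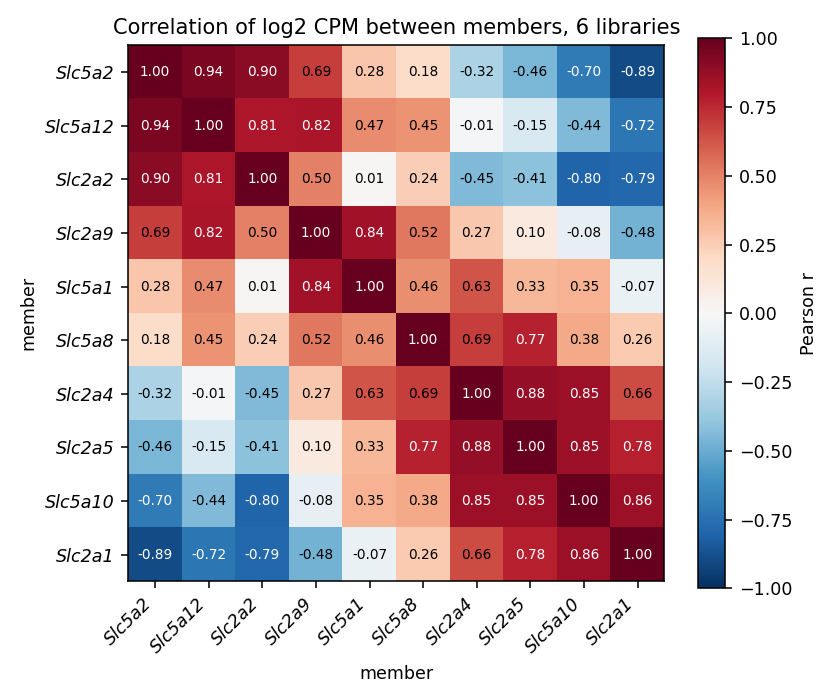
Pearson correlation of log2 CPM between each pair of members over the 6 libraries, from -1 (blue) to 1 (red). Slc5a2, Slc5a12 and Slc2a2 form a block with r from 0.81 to 0.94, and run against Slc2a1 with r from -0.89 to -0.72.

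Ratios between members within a library do not depend on the scaling of libraries. The log2 ratio of Slc5a12 to Slc5a8, the low-affinity against the high-affinity monocarboxylate carrier, was -0.66, -0.32 and 1.25 in Sham 1, 2 and 3 and 2.21, 1.37 and 1.95 in CKD 1, 2 and 3. All CKD libraries were above all controls, with a difference of 1.75 on the log2 scale or 3.37-fold (exact two-sided permutation p = 0.1, the smallest that 3 against 3 allows, and 0.5 adjusted over 5 ratios). The log2 ratio of Slc5a2 to Slc5a1 was 1.55, 3.28 and 4.26 in Sham 1, 2 and 3 and 3.68, 3.26 and 3.06 in CKD 1, 2 and 3. It overlapped between groups, with a mean difference of 0.30 (exact permutation p = 0.9). Slc2a2 to Slc2a1 differed by 1.17, Slc2a5 to Slc5a10 by -0.75 and Slc2a2 to Slc2a9 by -0.055, with overlap in each (exact permutation p = 0.4, 0.2 and 1.0). The difference of Slc2a2 to Slc2a1 was 0.58 without Sham 1, 0.59 without Sham 2 and 2.35 without Sham 3.

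The 8 members of the proximal tubule were also set against the summed counts of 12 other proximal tubule genes such as Lrp2 (megalin) and Slc34a1 (a phosphate carrier). That sum was 20420, 6973 and 23680 CPM in Sham 1, 2 and 3 and 14860, 13700 and 18350 CPM in CKD 1, 2 and 3, with 0 of the 12 genes called by edgeR and 6 of them positive (median log2 fold change -0.028). Relative to it, Slc2a5 was lower in CKD by a log2 difference of -1.51 and Slc5a8 by -1.08, without overlap between groups (exact permutation p = 0.1 each, the smallest possible, and 0.4 adjusted over 8 ratios). Sham 2, whose Slc5a8 level had fallen within the CKD range, was at -6.33 on this scale beside -6.00 and -6.02 in Sham 1 and Sham 3 and -7.82, -6.43 and -7.35 in CKD 1, 2 and 3. The margin between Sham 2 and CKD 2 was thus small. That of Slc2a5 was smaller still, with Sham 3 at -8.945 and CKD 2 at -8.956. The other 6 members overlapped, with differences from -0.76 (Slc5a10) to 0.67 (Slc5a12) and exact permutation p from 0.2 to 0.7. That of Slc5a10 was -1.52 without Sham 3 and -0.245 without Sham 2. The 12 genes include Slc34a1, Slc6a19, Slc4a4 and Gatm of the early proximal list and no gene of the late list. These ratios therefore do not set a late tubule gene such as Slc2a5 against late tubule content.

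**Figure D4:**
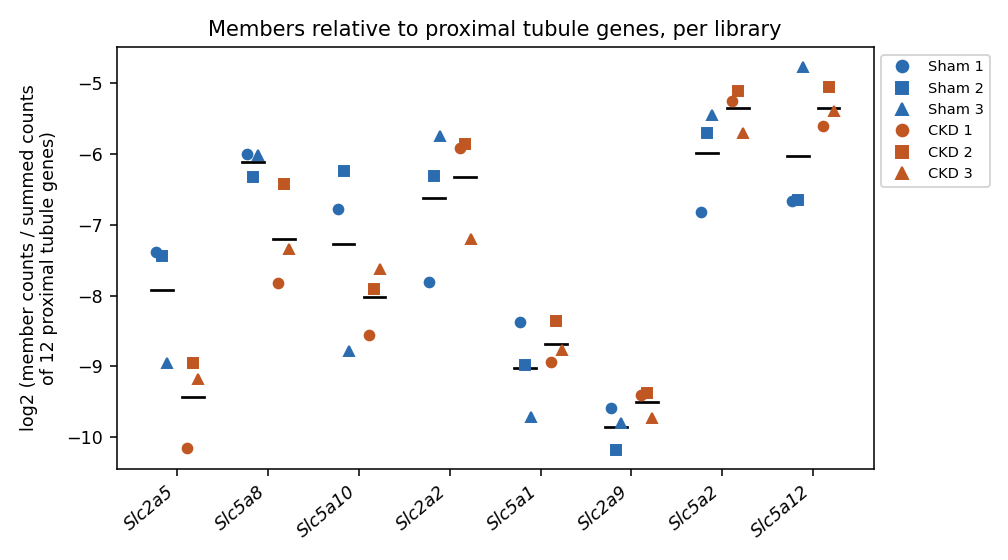
Log2 ratio of each proximal tubule member to the summed counts of 12 proximal tubule genes, by library (blue Sham, orange CKD); bars are group means. Slc2a5 and Slc5a8 lie lower in all 3 CKD libraries than in all 3 Sham libraries, and the other 6 members overlap. The nearest libraries differ little, with Slc2a5 at -8.945 in Sham 3 and -8.956 in CKD 2. Slc5a8 is at -6.33 in Sham 2 and -6.43 in CKD 2.

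Other genes of the same families and pathways were read from lists chosen by name, with earlier results of these data known. Of 10 tested further GLUT and SGLT genes 0 were called by edgeR, against 2.67% of all genes called higher and 1.15% called lower, with 4 positive, 6 negative and a median of -0.39. The smallest p values were those of Slc2a12 (GLUT12) and Slc5a3 (SMIT1, a carrier of the osmolyte myo-inositol). Slc2a12 had 41.4, 27.3 and 29.7 CPM in Sham 1, 2 and 3 and 17.0, 10.2 and 17.4 CPM in CKD 1, 2 and 3, and Slc5a3 had 99.8, 44.3 and 26.7 CPM and 20.9, 16 and 19.2 CPM. The groups did not overlap in either gene, with log2 fold changes of -1.14 and -1.61 (edgeR adjusted p = 0.0702 and 0.0868). DESeq2 called both as lower (adjusted p = 0.00544 and 0.00884), beside 7.28% of genes called lower by that tool. Slc2a8 and Slc2a10, named after their values were seen, were higher in CKD, also without overlap. Their log2 fold changes were 0.76 and 2.67 (edgeR adjusted p = 0.151 and 0.111). Slc2a10 was near the floor, at 0 to 0.282 CPM in Sham and 0.696 to 1.35 CPM in CKD. Of all genes tested, 31.2% were without overlap. Slc5a7 was at 0 in all libraries and 3 other listed genes did not pass the filter.

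Among 9 tested urate transport genes 1 was called by edgeR, Slc17a3 (NPT4, an exporter of organic anions including urate). It was lower, beside 1.15% of all genes called lower. In the list 2 genes were positive and 7 negative, with a median of -0.94. Slc17a3 fell from 214, 221 and 225 CPM in Sham 1, 2 and 3 to 81.8, 78.4 and 119 CPM in CKD 1, 2 and 3, or by a log2 value of -1.24 ± 0.24 (edgeR adjusted p = 0.0415). Its control libraries were within a few percent of each other, whereas those of the 10 members differed by 2.40 to 12.5 times. Slc22a12, which encodes the urate exchanger URAT1, had 977, 628 and 639 CPM in Sham and 84.3, 131 and 273 CPM in CKD, without overlap (log2 fold change -2.20 ± 0.48, edgeR adjusted p = 0.0514). It passed under 4 of 15 alternatives, namely DESeq2 (adjusted p = 7.16e-05), and in edgeR no filter (0.0345), scaling by library totals (0.0421) and the fit without CKD 3 (0.0358), where its log2 value was -2.79. Slc16a9, named after its values were seen, was higher in CKD, also without overlap (log2 fold change 1.10, edgeR adjusted p = 0.1975). Of all genes tested, 31.2% were separated in this way in either direction. Uox, which encodes the urate-degrading enzyme urate oxidase and was kept on the list of sugar partners, had 0 counts in all libraries.

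Of 13 tested partners of sugar handling 1 rose and 1 fell by edgeR (5 positive, 8 negative, median -0.34). Beside them, 2.67% of all genes were called higher and 1.15% lower. Khk, which encodes ketohexokinase, the enzyme that traps fructose by phosphorylation, fell from 23.8, 106 and 37.4 CPM in Sham 1, 2 and 3 to 3.71, 4.67 and 10.5 CPM in CKD 1, 2 and 3, or by a log2 value of -3.15 ± 0.66 (edgeR adjusted p = 0.0481). Sham 2 carried the highest value, and without it the log2 fold change was -2.31. Hk2, which encodes the insulin-responsive hexokinase 2, rose from 4.73, 3.21 and 3.31 CPM to 10.95, 16.3 and 9.37 CPM, or by a log2 value of 1.70 ± 0.34 (edgeR adjusted p = 0.0438). The calls of Slc17a3, Khk and Hk2 were each lost without Sham 2, Sham 3, CKD 1 or CKD 2, those of Khk and Hk2 also without CKD 3, and all 3 were lost in limma-voom (adjusted p from 0.0504 to 0.0639). Scaling by library totals also ended the call of Slc17a3 (edgeR adjusted p = 0.0539), no filter that of Khk (0.0511) and library weights that of Hk2 (limma-voom adjusted p = 0.0777). The directions were the same under all 15 alternatives. Pdzk1ip1 (MAP17, a small partner protein of SGLT2), named after its values were seen, stood at 189, 75.4 and 139 CPM in Sham 1, 2 and 3 and at 198, 211 and 192 CPM in CKD 1, 2 and 3. Its groups did not overlap, as in 31.2% of all genes, and its log2 fold change of 0.57 did not pass (edgeR adjusted p = 0.342).

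Of 7 tested partners of monocarboxylate transport 0 were called by edgeR, beside 2.67% of all genes called higher and 1.15% called lower. All 7 were negative, with a median of -0.79 against -0.0082 over all genes tested. Emb (embigin, a chaperone of MCT carriers) and Slc16a3 (MCT4, a lactate exporter) had the smallest p values, with log2 fold changes of -1.06 and -0.92 (edgeR adjusted p = 0.121 and 0.134). Both were lower past the threshold in DESeq2 (adjusted p = 0.0378 and 0.0297), beside 7.28% of genes called lower by that tool. Emb stood at 19.99 to 52.7 CPM in Sham and 16.5 to 16.8 CPM in CKD, and Slc16a3 at 8.94 to 11.9 CPM and 3.995 to 6.86 CPM, without overlap in either gene. Groups were so separated in 31.2% of all genes tested.

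**Figure D5:**
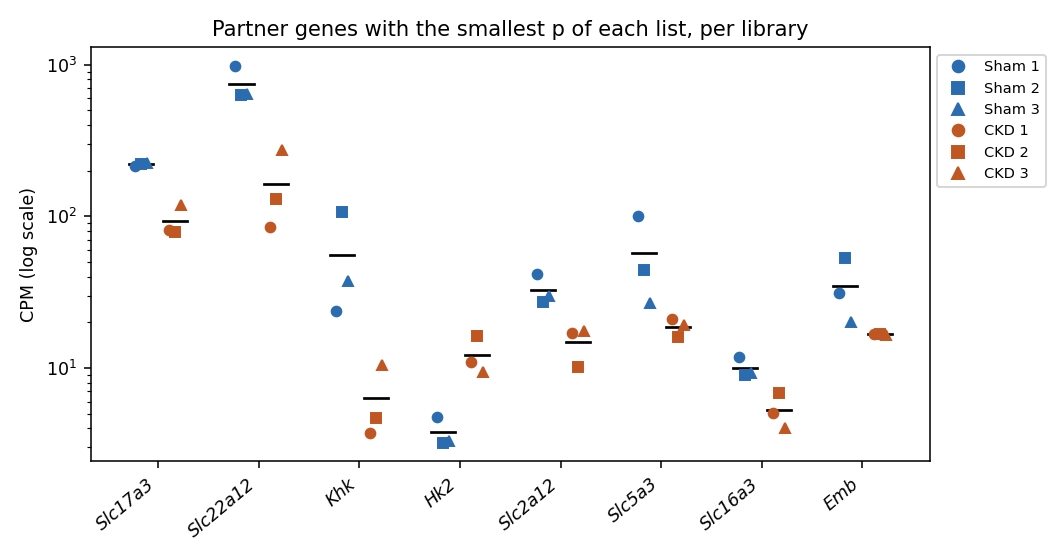
CPM (log axis) of the genes with the smallest p in each partner list, by library (blue Sham, orange CKD); bars are group means. Slc17a3 and Khk fell and Hk2 rose past the threshold, and in all 8 genes, which were picked for their small p, the 3 CKD libraries lie apart from the 3 Sham libraries, as they do in 31.2% of all genes.

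Markers of other cells give the setting of these values. Of 8 macrophage genes 3 rose, namely Cd163, Mrc1 and C1qa (edgeR adjusted p = 0.0302, 0.0285 and 0.0451), beside 2.67% of all genes called higher. The macrophage list summed to 68.5 to 173 CPM in Sham and 263 to 551 CPM in CKD. Of the fat cell genes Cfd rose (edgeR adjusted p = 0.0365). Of the tested early proximal (6), late proximal (6), thick limb (5), collecting duct (7), red cell (4), mural (5) and endothelial (5) genes 0 were called by edgeR. Their medians were 0.58, -1.80, -0.90, -1.18, -0.86, 0.44 and -0.50 on the log2 scale. Over all genes tested the median was -0.0082, and 1.15% were called lower. By the same lists, the genes with the smallest p in the tubule were Cldn16 (-0.92) and Slc12a1 (-0.90) of the thick limb, Slc4a1 (-2.08) and Aqp3 (-1.10) of the collecting duct, Slc6a18 (-1.44) and Slc7a13 (-3.54) of the late and Slc7a7 (0.94) and Slc4a4 (0.98) of the early proximal tubule, and Ggt1 (-0.83) and Slc4a4 of the 12 proximal genes. Elsewhere they were Hba-a3 (-1.28) and Hbb (-0.99) of red cells, Des (1.26) and Tagln (1.26) of mural cells, Pecam1 (-0.64) and Emcn (-0.69) of endothelium, and Adipoq (-1.14) after Cfd (3.11) of fat cells, all as log2 fold changes. The part of a change in cell makeup in the members' values was not tested.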

How the data were processed

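Per the labels' protocols, RNA was isolated by TRIzol and prepared for sequencing with a VAHTS Universal V5 kit. The deposited table holds the authors' raw gene counts, not normalized, and gene lengths. HTSeq 0.11.2, HISAT2 2.1.0, fastp 0.20.1 and build Rnor_6.0 are named in the submitters' processing notes. How strand was treated in counting is not given there. All 6 library columns matched sample titles, and 0 belonged elsewhere. Within a group, no pair of libraries agreed within sampling noise (lowest chi-square over its degrees of freedom 30.9).

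Genes were kept by filterByExpr (minimum count 10, total 15). TMM factors ran from 0.837 to 1.19. Group was the only term of a robust quasi-likelihood fit over all 15371 genes (edgeR 4.0.16, limma 3.58.1, R 4.3.3), adjusted by Benjamini-Hochberg with a threshold of 0.05. CPM and CPM per kilobase were computed from the deposited counts; log2 CPM used a prior count of 2, and ratios added 0.5 counts (2 as an alternative). The fit and the permutation test were checked on simulated data.

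Members, lists and the naming rule were chosen with earlier results of these data known. Named were all members, the nearest member of each, and in each list the genes past the threshold and the 2 with the smallest p; others are said to be chosen after their values were seen. Alternatives were RLE factors, library totals alone, other filters (none, or CPM 1 in 3 libraries), DESeq2 1.42.0, limma-voom with and without library weights, mitochondrial genes removed, a replicate block and each library left out. A result on 1 listed gene is not reported here.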

Additional observations from a re-analysis of the deposited data

How the results depend on the processing

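In edgeR 0 members were called under any scaling, filter or left-out library, and DESeq2 called 1 lower. The number of genes called, 587 (411 higher, 176 lower), was 2497 in DESeq2 (1379 and 1118), 2228 with library totals alone (2047 and 181), 195 in limma-voom and 487 with library weights (186 and 301). With a library left out it was 0 to 1711: edgeR called 1711 genes when Sham 1 was dropped, 2 when Sham 2 was, 7 when Sham 3 was, and 0 when CKD 1 or CKD 2 was, where 2330 and 2312 genes had an unadjusted p under 0.05. Replicate numbers are not said to pair the libraries. Same-numbered correlations of deviations from the group means were -0.206, 0.005 and -0.157, and no Sham library correlated best with its own number. With 3 libraries a group, these correlations cannot exclude a pairing. With the number as a replicate block 10 genes and 0 members were called. Slc17a3, Hk2 and Khk then had edgeR adjusted p of 0.0888, 0.0977 and 0.0687. Slc2a1, Slc2a5, Slc5a2, Slc5a8 and Slc5a10 had the same sign under all 15 alternatives. Slc2a2 was positive with library totals alone (0.37), in limma-voom (0.34) and with the replicate block (0.45), and ran from -0.43 to 1.11 with a library left out. Slc5a12 was negative in DESeq2 and with RLE factors (-0.018 each), with library weights (-0.057) and without mitochondrial genes (-0.0155), and ran from -0.51 to 1.44. Left-out libraries moved Slc2a4 from -1.03 to 0.092, Slc2a9 from -0.35 to 0.36 and Slc5a1 from -0.28 to 0.82. The log2 ratio differences ran from -0.78 to 0.36 for Slc2a2 to Slc2a9, -0.44 to 0.91 for Slc5a2 to Slc5a1, and relative to the proximal genes from -0.29 to 0.74 for Slc2a2 and -0.011 to 0.66 for Slc5a1. The causes were not tested. The 95% intervals come from 3 libraries a group, and the members had at least 51 counts in each library.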
